A study of Mus musculus with 12 samples.

Results

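Collagen genes were identified as every gene whose symbol in the deposited tables had the form Col, a number, a and a number (for example Col1a1). This gave 42 of the 16288 genes listed in any library, and the 24 with a mean of at least 0.5 FPKM in a group are described here. FPKM is the number of fragments per kilobase of transcript, scaled to library size, so it allows levels of different genes to be compared. RNA came from C2C12 cells, an immortalized mouse myoblast line, in 12 libraries that formed 6 groups of 2. Cells were harvested while proliferating in medium with 10% fetal bovine serum (GM), or 24 h or 48 h after a change to differentiation medium with 2% horse serum and insulin (DM 24h and DM 48h). At each stage cells had received either the vehicle DMSO or PFI-3, a ligand for the bromodomains of BRM and BRG1, the motor subunits of SWI/SNF remodelling complexes. PFI-3 was given at 50 uM. DMSO or PFI-3 was added 12 h before harvest of the GM cells or before induction and was replaced every 24 h in differentiation medium. All groups came from a single line, and the series describes the libraries of a group (A and B) as biological duplicates. With n = 2 in every group, the p-values measure only the spread between these samples.

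Collagens are secreted or membrane-bound proteins built from 3 chains wound into a triple helix. Fibrillar collagens such as types I, III and V form the tensile fibres of the interstitial matrix, type IV forms the network of basement membranes, and type VI forms beaded filaments that link the muscle fibre surface to the matrix. Skeletal muscle cells lie on a type IV and type VI rich layer, and fibroblasts of the muscle interstitium are the best known source of its fibrillar collagen.

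The labelled cell type was checked against marker genes. The summed level of the 4 myoblast markers Myod1, Myf5, Des and Cdh15 was 205 to 1151 FPKM, and that of Myog, Myh3, Ckm and Acta1 rose from at most 6.95 FPKM in GM libraries to at least 496.5 FPKM in DM libraries. Summed markers of endothelial, blood, adipocyte, epithelial and osteoblast cells did not exceed 0.72 FPKM in any library. The tendon factor Scx (38.71 to 147.02 FPKM) and the cartilage factor Sox9 (14.49 to 24.99 FPKM) were present in every library. The other tendon markers listed, Tnmd and Mkx, reached at most 0.06 and 0.47 FPKM. Of the other cartilage markers, Matn1 reached at most 0.04 FPKM and Acan was at 0. PFI-3 cells had less Myog at DM 24h (-1.05 ± 0.08 as log2 fold change and its SE, with adjusted p = 2.4e-06) and DM 48h (-0.62 ± 0.07, adjusted p = 8.37e-05), and less Scx at DM 48h (-0.51 ± 0.14, adjusted p = 0.018). Myh3, Ckm and Acta1 were also called lower at both DM stages. The myoblast marker Cdh15 was called lower at every stage (-1.39 ± 0.11 in GM, adjusted p = 2.87e-05 in edgeR, -0.90 ± 0.11 at DM 24h and -0.335 ± 0.106 at DM 48h). In GM Des was lower too (-0.47 ± 0.09, adjusted p = 0.00691 in edgeR), while Myod1 and Myf5 were not called at any stage. The part of such shifts in the collagen results was not tested. In these bulk samples fewer cells that express a gene and less RNA per cell cannot be told apart. Libraries held 12576374 to 13658352 expected counts. Replicates spread more in GM than in DM: the SD over genes of the log2 ratio of library B to A reached 0.332 and 0.312 for the GM groups and 0.141 to 0.16 in the DM groups.

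Of the 24 described collagens, 17 had at least 0.5 FPKM in all 6 groups. Col7a1 (0.55 FPKM in GM with PFI-3) and Col23a1 (0.525 FPKM at DM 48h with DMSO) were just inside the limit, and Col26a1 (0.475 FPKM) and Col17a1 (0.415 FPKM) just outside it. All 24 passed the low-count filter of the test, as did 4 of the other 18. Among the 18 were chains typical of cartilage or epithelium, such as Col2a1 (highest group mean 0.205 FPKM), Col10a1 (0.145 FPKM) and Col9a2 (0.045 FPKM). Of the 4 that were tested, Col11a1, a type XI chain, had unadjusted p-values of 0.0397 in GM and 0.0381 at DM 48h in edgeR for PFI-3 against DMSO, and its adjusted p-values were 0.156 and 0.107.

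Vehicle-treated cells gained collagen mRNA on leaving the proliferative stage. The summed level of all collagens was 659.73 and 694.86 FPKM in the GM libraries with DMSO (0.136% and 0.144% of all FPKM) and 2184.68 and 2158.87 FPKM at DM 24h (0.494% and 0.488%). It was 2041.66 and 2081.89 FPKM at DM 48h. Between GM and DM 24h, 21 of 24 collagens were called by edgeR's quasi-likelihood test at an adjusted p under 0.05, 19 higher and 2 lower, against 60.6% of all genes tested (30.6% higher and 30.0% lower). Their median log2 fold change was 1.73, and that of all genes 0.02.

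Type VI collagen had some of the largest rises. Col6a2, which with Col6a1 and Col6a3 makes the common form of the protein, was at 1.59 and 2.76 FPKM in GM and at 119.78 and 121.83 FPKM at DM 24h. Its log2 fold change was 5.73 ± 0.21 (adjusted p = 4.92e-10), a 53.2-fold rise. Col6a1 was at 6.29 and 15.81 FPKM in GM and at 252.2 and 257.46 FPKM at DM 24h (log2 fold change 4.49 ± 0.36, adjusted p = 5.84e-07). The Col6a1 replicates in GM differed by 1.33 in log2 units with DMSO and by 1.1 with PFI-3, yet no GM library came near the DM libraries. Col6a3, at 38.82 and 39.68 FPKM in GM, was already expressed in proliferating cells and rose by less, to 81.94 and 82.44 FPKM (1.00 ± 0.08, adjusted p = 5.99e-07).

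The fibrillar chains were the most abundant class, with 53.9% to 60.3% of collagen FPKM in the DMSO libraries. All 9 described fibrillar genes were called higher between GM and DM 24h. The call of Col5a2 (0.28, adjusted p = 0.0387) was lost in 11 of 21 alternatives, and without GM DMSO library B its change was 0.08 (adjusted p = 0.306). Col3a1, the single chain of type III collagen, had the highest mean level of any collagen in each group, at 100.22 and 133.98 FPKM in GM and at 601.51 and 577.17 FPKM at DM 24h (log2 fold change 2.29 ± 0.16, adjusted p = 1.79e-07). Col1a1, the major chain of type I collagen, was low in GM at 6.09 and 6.5 FPKM and reached 68.12 and 67.14 FPKM, a 10.4-fold rise (3.37 ± 0.07, adjusted p = 4.53e-12). Its partner Col1a2 was at 82.08 and 128.69 FPKM in GM and at 362.42 and 354.54 FPKM at DM 24h (1.72 ± 0.17, adjusted p = 3.32e-06). Col5a3, the least common of the type V chains, was at 1.72 and 1.58 FPKM in GM and at 22.89 and 23.1 FPKM at DM 24h (3.75 ± 0.18, adjusted p = 5.24e-09). In none of these genes did the GM and DM libraries overlap.

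Other classes moved in both directions. Col8a1, a short-chain network collagen, fell from 15.23 and 16.53 FPKM in GM to 12.55 and 12.18 FPKM at DM 24h (log2 fold change -0.41 ± 0.10, adjusted p = 0.0029). Col7a1, the anchoring fibril collagen of epithelial junctions, was at 0.4 and 0.59 FPKM in GM and at 0.21 and 0.17 FPKM at DM 24h (-1.44 ± 0.28, adjusted p = 0.000691). Both fell with no overlap. Col4a1 and Col4a2, the ubiquitous basement membrane chains, and the low-level Col23a1 were not called, with log2 fold changes of 0.09 ± 0.16, 0.06 ± 0.18 and 1.74 ± 1.13. Without GM DMSO library A both type IV changes were called higher (0.49 and 0.52), and without library B both were called lower (-0.22 and -0.30). Col14a1, a collagen that binds fibril surfaces, had 1 and 2 counts in the GM libraries and 50 and 48 at DM 24h, a ratio per library total of 34.8 (95% exact interval 11.6 to 172, counting error only).

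**Figure D1:**
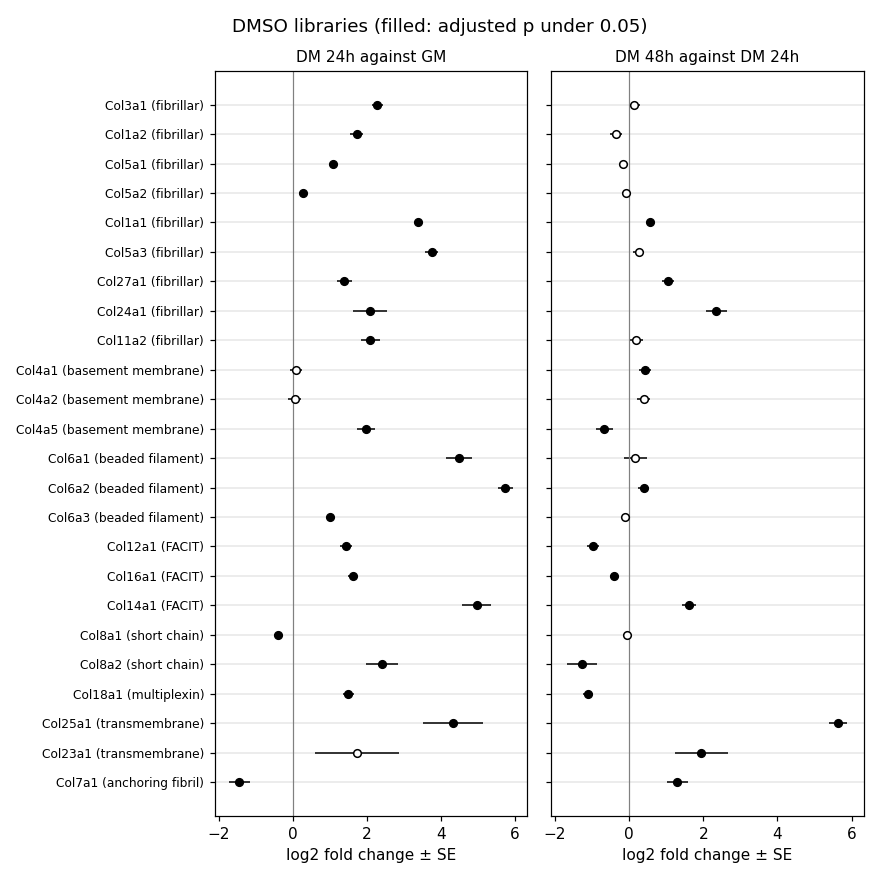
Log2 fold changes (horizontal axes, points, with standard errors as bars) of the 24 described collagens in the DMSO libraries between successive stages, one gene per row with its class in brackets; filled points passed an adjusted p under 0.05 in edgeR. Nearly all points of the left panel lie to the right of zero, and the right panel shows 9 filled points to the right and 5 to the left. The left points of Col25a1 and Col14a1 rest on 1 and 3 counts over the GM libraries.

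From DM 24h to DM 48h, 14 collagens were called in the vehicle libraries, 9 higher and 5 lower, against 48.1% of all genes tested (24.2% higher and 23.9% lower). A fit without the 4 GM libraries, chosen after seeing the data, called 21 there, 13 higher and 8 lower, against 63.1% (32.0% higher and 31.1% lower). The largest rise was that of Col25a1, a transmembrane collagen made by developing muscle that takes part in motor innervation, which had 9 and 15 counts at DM 24h but 576 and 588 at DM 48h (log2 fold change 5.64 ± 0.24, adjusted p = 3.91e-09). It had 0 and 1 count in GM, so the rise from GM to DM 48h is a ratio of 1238 with a wide exact interval of 222 to 48939. Col24a1, a minor fibrillar chain, rose from 0.33 and 0.23 to 1.28 and 1.44 FPKM (2.35 ± 0.28, adjusted p = 2.26e-05). Col14a1 rose from 0.62 and 0.58 to 1.61 and 1.9 FPKM (1.61 ± 0.19, adjusted p = 2.13e-05). All of these had both DM 48h libraries above both DM 24h libraries.

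Col1a1 also rose again, to 96.67 and 93.83 FPKM (0.56 ± 0.06, adjusted p = 1.24e-05), as did Col23a1, Col7a1, Col27a1, Col4a1 and Col6a2. The calls of Col23a1, Col4a1 and Col6a2 were lost in 7, 10 and 11 of 22 alternatives. The 5 that fell were Col8a2, Col18a1, Col12a1, Col4a5 and Col16a1. Among them, Col8a2, Col4a5 and Col16a1 lost their call in 6, 5 and 3 of 22 alternatives. Col18a1, whose protein carries the endostatin domain, went from 163.17 and 171.35 to 74.42 and 73.38 FPKM (-1.11 ± 0.14, adjusted p = 3.94e-05). Col12a1, which coats type I fibrils, went from 90.59 and 90.26 to 43.57 and 44.6 FPKM (-0.97 ± 0.17, adjusted p = 0.000492). Each was transiently high at DM 24h, since both were lower in GM too. The number of calls depended on single libraries here: it was smaller without any single library of the groups compared. The number called over all genes tested was smaller in each of these fits too, so this does not set the collagens apart. Against GM, 21 collagens were called at DM 48h, 20 higher and Col8a1 lower, where 73.1% of all genes tested were called (37.2% higher and 35.9% lower). Of these 21, Col4a2, Col12a1, Col18a1 and Col4a1 lost their call in 12, 5, 3 and 1 of 21 alternatives.

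**Figure D2:**
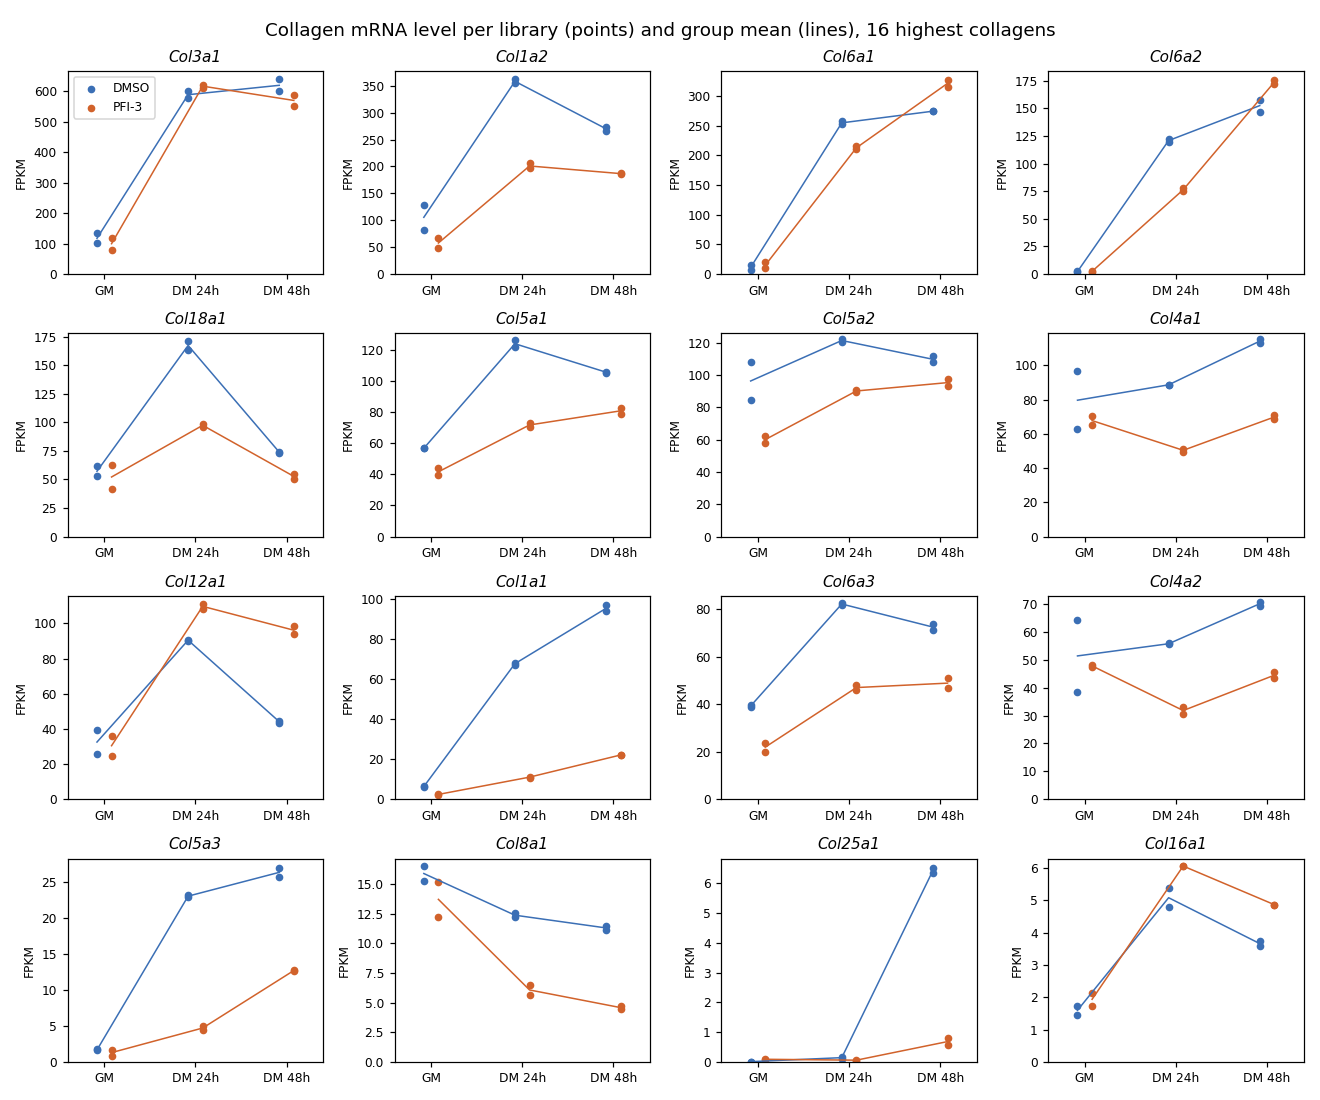
FPKM (vertical axes, linear, a scale for each gene) of the 16 most abundant collagens at the 3 stages, with a point for each library and lines through the group means, DMSO in blue and PFI-3 in orange. Col1a1, Col5a3 and Col25a1 separate widely between treatments in differentiation medium, Col3a1 does not, and Col12a1 at DM 48h is higher with PFI-3.

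Which collagens differed with the compound was asked separately for GM, DM 24h and DM 48h. In GM, 8 of 24 collagens were called, 5 lower and 3 higher, against 11.6% of all genes tested (5.46% higher and 6.15% lower). At DM 24h 13 were called, 12 lower and 1 higher, against 23.6% (12.2% higher and 11.4% lower). At DM 48h 13 were called, 12 lower and 1 higher, against 27.4% (13.4% higher and 14.0% lower). The median log2 fold change over the 24 was -0.22 for GM, -0.59 for DM 24h and -0.52 for DM 48h, beside -0.01, 0.00 and 0.00 over all genes tested. By FPKM in each library, 16 of the 24 had both PFI-3 libraries below both DMSO libraries at DM 24h, against 28.9% of all genes tested. At DM 48h 16 did, against 26.3%, and in GM 6 did, against 13.4%.

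The 4 collagens called lower at all 3 stages were Col1a1, Col1a2, Col5a1 and Col6a3, and 10 were called lower at both DM stages. How many of all genes tested were called jointly over stages was not counted, so these numbers have no reference. The 7 that were not called at any stage were Col3a1, Col16a1, Col23a1, Col24a1, Col4a5, Col6a1 and Col8a2. How many were called at the DM stages depended on whether the GM libraries, with their larger spread, entered the fit. The fit without the 4 GM libraries called 19 collagens at DM 24h (15 lower, 4 higher), against 44.7% of all genes it tested (22.9% higher and 21.8% lower). It called 21 at DM 48h (15 lower, 6 higher), against 47.2% (22.9% higher and 24.3% lower). These included all 13 called at each stage with the GM libraries. In GM alone, a fit of only the 4 GM libraries called 1 collagen, Col1a1, and 32 of 11656 genes in all. Limma on log2(FPKM + 1) called 5 in GM, all lower; over all genes it put 1057 of 1404 calls in GM and 2554 of 3910 calls at DM 48h on the higher side, where edgeR had 685 of 1456 and 1682 of 3438. At DM 24h it put 1863 of 3006 there, against 1533 of 2966 in edgeR.

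**Figure D3:**
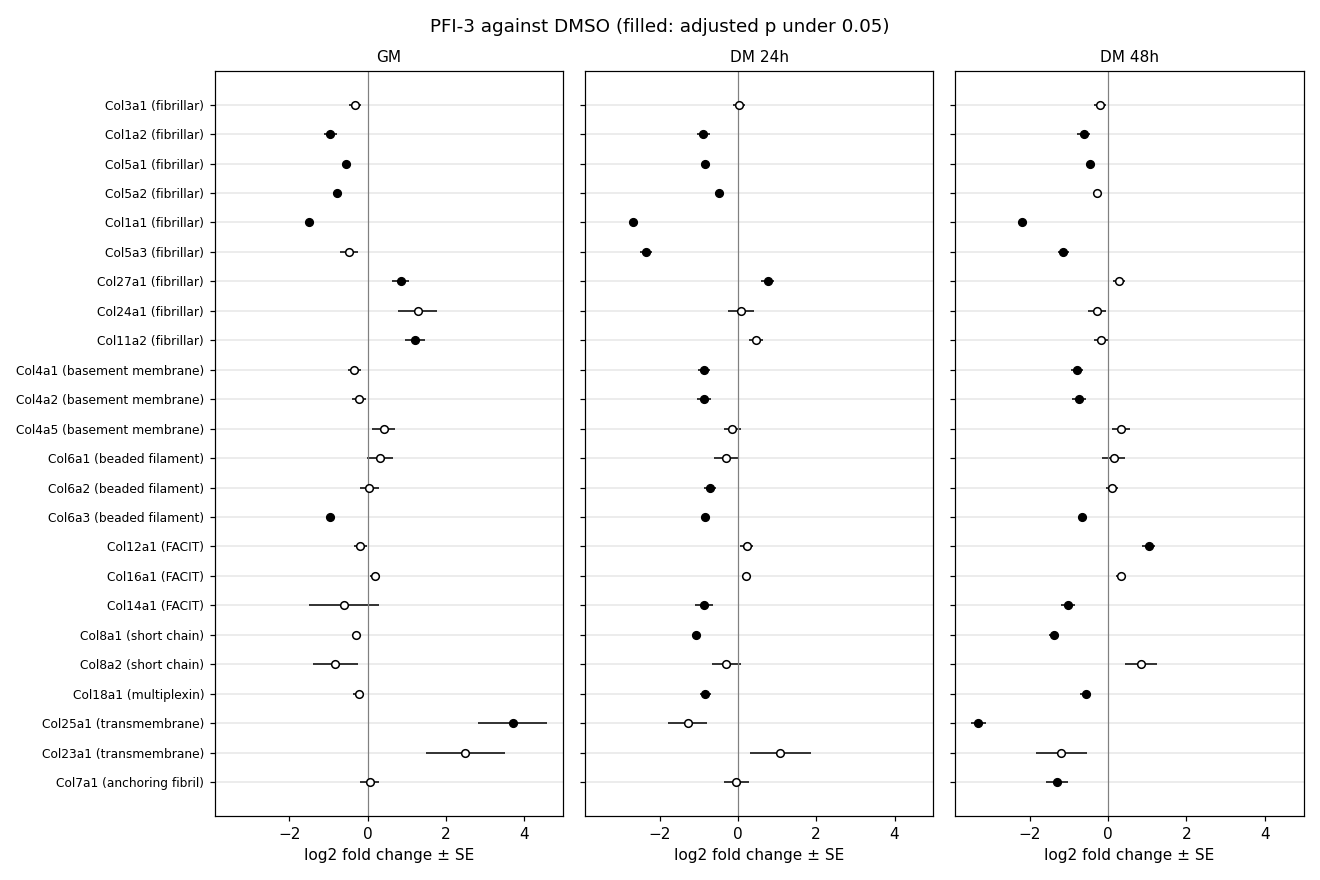
Log2 fold change with PFI-3 against DMSO (horizontal axes, shared scale, points with standard errors as bars) for the 24 described collagens at GM, DM 24h and DM 48h, grouped by class; filled points passed an adjusted p under 0.05 in edgeR. Filled points lie to the left of zero for 5, 12 and 12 genes and to the right for 3, 1 and 1; the GM point of Col25a1 rests on 1 count over the DMSO libraries.

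Among the fibrillar collagens, Col1a1 had the largest fall. In GM it was at 6.09 and 6.5 FPKM with DMSO and at 2.53 and 2.22 FPKM with PFI-3 (log2 fold change -1.51 ± 0.08, adjusted p = 8.51e-07). By DM 24h the level was 68.12 and 67.14 FPKM with DMSO and at 11.22 and 10.78 FPKM with PFI-3, 6.35-fold lower (-2.67 ± 0.07, adjusted p = 6.07e-10). By DM 48h the level was 96.67 and 93.83 FPKM with DMSO and at 22.24 and 21.89 FPKM with PFI-3, 4.58-fold lower (-2.20 ± 0.06, adjusted p = 3.88e-09). The treatments did not overlap at any stage, and the call held in every alternative counted. These counts of alternatives, here and for the other genes, leave out the 2-fold cutoff. The gene lies at chr11:94936224-94953042 (RefSeq, GRCm38.p6, the mm10 assembly).

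Col1a2 fell by less than Col1a1. It was at 82.08 and 128.69 FPKM with DMSO and at 47.72 and 67.4 FPKM with PFI-3 in GM (-0.96 ± 0.17, adjusted p = 0.00439). At DM 24h the values were 362.42 and 354.54 FPKM against 205.57 and 196.32 FPKM (-0.88 ± 0.17, adjusted p = 0.0026). At DM 48h they were 266.56 and 273.74 FPKM against 188.17 and 185.28 FPKM (-0.62 ± 0.16, adjusted p = 0.0149), again without overlap. The DM 48h call was lost in 6 of 22 alternatives, among them each fit that left out one DM 48h library (highest adjusted p = 0.0911).

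The type V chains, which help set the diameter of type I fibrils, fell to different degrees. Col5a3 was at 22.89 and 23.1 FPKM with DMSO and at 4.94 and 4.44 FPKM with PFI-3 at DM 24h, 5.07-fold lower (-2.34 ± 0.16, adjusted p = 1.67e-06). By DM 48h the level was 25.7 and 26.9 FPKM against 12.74 and 12.6 FPKM (-1.14 ± 0.14, adjusted p = 0.000116). In GM it was at 1.72 and 1.58 FPKM against 1.7 and 0.85 FPKM, and these ranges overlapped (-0.48 ± 0.22, adjusted p = 0.183).

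Col5a1, the chain common to most type V molecules, was at 126.35 and 121.72 FPKM with DMSO and at 73.01 and 70.56 FPKM with PFI-3 at DM 24h (-0.84 ± 0.07, adjusted p = 5.43e-06). It was also lower in GM (-0.55 ± 0.07, adjusted p = 0.000459) and again at DM 48h (-0.47 ± 0.07, adjusted p = 0.000239). Col5a2 was at 107.8 and 84.8 FPKM against 62.27 and 57.76 FPKM in GM (-0.79 ± 0.11, adjusted p = 0.000952). Its later differences were smaller: -0.48 ± 0.11 at DM 24h (adjusted p = 0.00716), then -0.29 ± 0.11 by DM 48h (adjusted p = 0.0616). The latter was called with a replicate block (adjusted p = 0.0461), by DESeq2 (adjusted p = 0.0386) and without the GM libraries (adjusted p = 4.19e-08), and the DM 24h call was lost in 3 of 22 alternatives.

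Col3a1 showed no such difference. With DMSO it was at 601.51 and 577.17 FPKM and with PFI-3 at 622.61 and 612.24 FPKM at DM 24h, and at 600.46 and 640.05 against 587.32 and 553.69 FPKM at DM 48h. The log2 fold changes were 0.02 ± 0.15 (adjusted p = 0.943) and -0.21 ± 0.15 (adjusted p = 0.347), and in GM -0.33 ± 0.15 (adjusted p = 0.182). At DM 48h both PFI-3 libraries were below both DMSO libraries, and the fit without the GM libraries called that difference (adjusted p = 1.74e-05).

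The minor fibrillar chains were at low levels and went the other way in GM. Col27a1, a chain of cartilage and developing tissues, was at 0.19 and 0.28 FPKM with DMSO and at 0.47 and 0.45 FPKM with PFI-3 (0.84 ± 0.22, adjusted p = 0.0291). By DM 24h the level was 0.69 and 0.6 against 1.18 and 1.09 FPKM (0.77 ± 0.17, adjusted p = 0.0065), the single higher call at that stage. Col11a2, a type XI chain, was at 0.18 and 0.16 against 0.44 and 0.4 FPKM in GM (1.21 ± 0.27, adjusted p = 0.015). The treatments did not overlap in any of these 3 comparisons. The GM calls of Col27a1 and Col11a2 were lost in 7 and 4 of 21 alternatives (highest adjusted p = 0.379 and 0.292), and the DM 24h call of Col27a1 in 2 of 22. Col24a1 was not called at any stage, with log2 fold changes of 1.27 ± 0.49 in GM, 0.07 ± 0.34 at DM 24h and then -0.29 ± 0.23 by DM 48h.

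The basement membrane chains Col4a1 and Col4a2 fell together in differentiation medium. Col4a1 was at 88.69 and 88.71 FPKM with DMSO and at 51.46 and 49.38 FPKM with PFI-3 at DM 24h (-0.86 ± 0.16, adjusted p = 0.00237). By DM 48h the level was 113.03 and 115.46 against 71.33 and 68.45 FPKM (-0.80 ± 0.16, adjusted p = 0.00275). Col4a2 was at 55.99 and 55.61 against 33.18 and 30.46 FPKM at DM 24h (-0.86 ± 0.18, adjusted p = 0.0052), and the difference at DM 48h was -0.74 ± 0.18 (adjusted p = 0.00876). Neither overlapped between treatments at these stages, whereas in GM both did, with log2 fold changes of -0.34 ± 0.16 and -0.21 ± 0.18. The GM value of Col4a2 depended on single libraries: it was 0.25 without DMSO library A (adjusted p = 0.035) and -0.57 without DMSO library B (adjusted p = 9.43e-05). The Col4a2 calls were lost in 1 of 22 alternatives at DM 24h and in 3 of 22 at DM 48h.

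The genes for these partner chains lie head to head on chromosome 8. In GRCm38.p6 the annotated Col4a1 gene (minus strand) reaches to 11312889, and Col4a2 (plus strand) begins at 11312805, so the genes overlap. The start site used for the Col4a1 promoter window, 11312826, lies inside the annotated gene, and 63 bases of that window do too. Counted from this start site alone, the overlap is 22 bases. Without strand information, reads from the overlap could be given to either gene. Col4a5, on the X chromosome and also of type IV, was at 2.21 and 2.34 FPKM with DMSO and at 2.14 and 2.14 FPKM with PFI-3 at DM 24h, and was not called at any stage.

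Within type VI collagen the 3 chains did not move alike. Col6a3 was lower with PFI-3 at all stages: 38.82 and 39.68 against 23.77 and 20.07 FPKM in GM (-0.95 ± 0.08, adjusted p = 3.27e-05), 81.94 and 82.44 against 48.18 and 45.83 FPKM at DM 24h (-0.84 ± 0.08, adjusted p = 2.02e-05), and 73.58 and 71.38 against 50.9 and 46.84 FPKM at DM 48h (-0.66 ± 0.08, adjusted p = 8.6e-05). Col6a2 was lower at DM 24h, at 119.78 and 121.83 against 77.75 and 74.75 FPKM (-0.71 ± 0.15, adjusted p = 0.00629), a call lost in 5 of 22 alternatives. By DM 48h it was at 157.93 and 146.99 against 175.31 and 172.11 FPKM (0.10 ± 0.15, adjusted p = 0.673).

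Col6a1 was not called at any stage, although its DM libraries did not overlap: 252.2 and 257.46 against 215.53 and 209.9 FPKM at DM 24h, and 274.09 and 274.9 against 326.67 and 316.1 FPKM at DM 48h. Its log2 fold changes were -0.31 ± 0.30 and 0.14 ± 0.30. In the fit without the GM libraries, whose Col6a1 replicates spread widely, the difference was called lower for DM 24h (adjusted p = 1.08e-08) but higher for DM 48h (adjusted p = 0.00232).

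Col12a1 was the one collagen called higher with PFI-3 at DM 48h. It was at 90.59 and 90.26 FPKM with DMSO and at 111.24 and 108.15 FPKM with PFI-3 at DM 24h (0.23 ± 0.17, adjusted p = 0.348). By DM 48h the level was 43.57 and 44.6 against 98.26 and 93.98 FPKM, 2.05-fold higher (1.04 ± 0.17, adjusted p = 0.000726). The treatments did not overlap at either stage, and the DM 48h call held in all 22 alternatives. The fall of Col12a1 between DM 24h and DM 48h in vehicle cells was not called in PFI-3 cells (-0.17 ± 0.17, adjusted p = 0.504), although their DM 48h libraries lay below those of DM 24h. The fit without the GM libraries called it (-0.17 ± 0.04, adjusted p = 0.000245).

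Of the other collagens in its class, which associate with fibrils through interrupted helices (FACIT), Col14a1 was lower with PFI-3, at 0.62 and 0.58 against 0.38 and 0.3 FPKM at DM 24h (-0.87 ± 0.23, adjusted p = 0.0167) and at 1.61 and 1.9 against 0.87 and 0.96 FPKM at DM 48h (-1.02 ± 0.18, adjusted p = 0.00118). The DM 24h call was lost in 4 of 22 alternatives. Col16a1, the third member, was at 3.75 and 3.57 against 4.87 and 4.86 FPKM at DM 48h, which did not overlap and was not called (0.33 ± 0.11, adjusted p = 0.0503).

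Col8a1 and Col18a1 were lower with PFI-3 at both DM stages. Col8a1 was at 12.55 and 12.18 FPKM with DMSO and at 5.63 and 6.49 FPKM with PFI-3 at DM 24h (-1.08 ± 0.10, adjusted p = 2.19e-05), and at 11.09 and 11.49 against 4.71 and 4.43 FPKM at DM 48h (-1.39 ± 0.11, adjusted p = 2.98e-06). Col18a1 was at 163.17 and 171.35 against 98.87 and 95.88 FPKM at DM 24h (-0.83 ± 0.14, adjusted p = 0.0014), and at 74.42 and 73.38 against 54.77 and 50.56 FPKM at DM 48h (-0.58 ± 0.14, adjusted p = 0.00953). No DM library of one treatment reached those of the other. The DM 48h call of Col18a1 was lost in 2 of 22 alternatives. Col8a2, the usual partner of Col8a1, was at 1.9 and 1.73 against 3.32 and 3.58 FPKM at DM 48h and was not called (0.84 ± 0.40, adjusted p = 0.148); without the GM libraries, where it spread from 0.21 to 1.48 FPKM with DMSO, it was (adjusted p = 9.6e-07).

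Col25a1 differed most in size. By DM 48h the level was 6.36 and 6.51 FPKM with DMSO and at 0.79 and 0.57 FPKM with PFI-3, 9.93-fold lower (-3.31 ± 0.19, adjusted p = 4.87e-07), and this call held in all 22 alternatives. At DM 24h it had 9 and 15 counts with DMSO and 4 and 6 with PFI-3, and was not called (adjusted p = 0.0851). In GM it had 0 and 1 count with DMSO and 11 and 6 with PFI-3. That difference was called (adjusted p = 0.0209), and the ratio of counts was 17.2 with an exact interval of 2.70 to 721. The call was lost in 5 of 19 alternatives (highest adjusted p = 0.41). Col23a1, the other transmembrane member described, had 19 and 1 counts in the DM 24h DMSO libraries and was not called at any stage. Col7a1 was at 0.39 and 0.5 against 0.16 and 0.22 FPKM at DM 48h (-1.30 ± 0.28, adjusted p = 0.00477), a call lost in 2 of 22 alternatives.

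The bases before the start sites of Col5a3, Col8a1 and Col3a1 are shown because Col5a3 and Col8a1 were among the collagens with the largest falls with PFI-3 at the DM stages, and Col3a1 was the most abundant collagen and was not called. They are from RefSeq, GRCm38.p6, 5′ to 3′ on the gene's strand, and lie outside the gene as RefSeq annotates it. The table used gives 250 bases before a start site of each gene. For 12 of the 22 windows of the described collagens, some or all of these bases are inside the annotated gene, among them the whole Col25a1 window, so no Col25a1 sequence is shown. For Col5a3 50 such bases were left off, and 200 bases are printed. Capitals mark CCAAT (the CCAAT box), CAGCTG (an E-box of the kind bound by myogenic factors) and TATAAA (the TATA box), searched on both strands; these motifs share no bases here. Col5a3 is at chr9:20815118-20815317 on the minus strand, Col8a1 at chr16:57754738-57754987 on the minus strand and Col3a1 at chr1:45311288-45311537 on the plus strand.
Col5a3: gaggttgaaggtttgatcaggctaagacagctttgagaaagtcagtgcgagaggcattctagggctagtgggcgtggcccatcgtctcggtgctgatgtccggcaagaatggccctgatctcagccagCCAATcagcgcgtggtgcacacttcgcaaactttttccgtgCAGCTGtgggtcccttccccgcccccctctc
Col8a1: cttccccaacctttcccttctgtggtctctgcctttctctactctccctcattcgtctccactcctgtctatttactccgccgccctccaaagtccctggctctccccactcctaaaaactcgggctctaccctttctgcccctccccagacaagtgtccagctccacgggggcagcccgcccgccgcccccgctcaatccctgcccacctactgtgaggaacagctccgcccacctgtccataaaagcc
Col3a1: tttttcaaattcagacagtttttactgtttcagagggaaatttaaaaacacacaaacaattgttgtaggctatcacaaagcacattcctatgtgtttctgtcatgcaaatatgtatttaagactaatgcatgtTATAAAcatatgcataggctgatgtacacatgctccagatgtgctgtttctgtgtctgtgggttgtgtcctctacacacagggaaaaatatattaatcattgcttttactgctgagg
Col5a3 holds 1 CCAAT and 1 CAGCTG, Col3a1 holds 1 TATAAA, and Col8a1 holds none of these. The GC content was 58.0% for Col5a3, 60.8% for Col8a1 and 35.2% for Col3a1. Of the 24 described collagens, 20 had an entry, with 22 windows, and Col1a1, Col12a1, Col5a2 and Col14a1 had none. In the full windows of 250 bases, CCAAT was in 9 of the 22, CAGCTG in 3, TATAAA in 2 and GGGCGG (the GC box bound by Sp1, not capitalised) in 16, beside 33.8%, 13.0%, 12.4% and 32.7% of all 32851 mouse promoter windows of this length. These matches describe letters only, and no binding was measured.

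PFI-3 cells also gained collagen mRNA on differentiation. Between GM and DM 24h with PFI-3, 21 collagens were called, 17 higher and 4 lower, against 60.3% of all genes tested (32.1% higher and 28.2% lower). Col6a2 went from 1.64 and 3.05 to 77.75 and 74.75 FPKM (4.99 ± 0.20, adjusted p = 2.33e-09), and Col1a1 from 2.53 and 2.22 to 11.22 and 10.78 FPKM (2.21 ± 0.08, adjusted p = 6.15e-10). The 4 that fell were Col7a1, Col8a1, Col4a2 and Col4a1. The Col4a1 call (-0.43, adjusted p = 0.0341) was lost in 9 of 21 alternatives (highest adjusted p = 0.139) and the Col4a2 call in 1 of 21. From DM 24h to DM 48h, 11 were called, 9 higher and 2 lower (Col18a1 and Col8a1), against 27.3% of all genes (13.1% higher and 14.2% lower). This count was smaller without either DM 48h library and without library B at DM 24h. The share of all genes in those fits is not given here. In the fit without the GM libraries the count was 18, against 47.5% of all genes tested there. The summed collagen level with PFI-3 was 476.71 and 560.72 FPKM in GM, 1665.28 and 1622.24 FPKM at DM 24h, and 1835.14 and 1759.23 FPKM at DM 48h. At every stage both values lay below those of the DMSO libraries.

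Whether the PFI-3 difference itself changed between stages was tested with interaction contrasts. Cells of each later stage had also been exposed to PFI-3 for longer. Stage and length of exposure therefore cannot be told apart in these contrasts. From GM to DM 24h, 4 collagens were called, all towards lower values with PFI-3 (Col25a1, Col5a3, Col1a1 and Col8a1), against 3.37% of all genes (1.78% higher and 1.59% lower). For Col5a3 the PFI-3 difference moved from -0.48 to -2.34, an interaction of -1.86 ± 0.27 (adjusted p = 0.00439). For Col1a1 it moved from -1.51 to -2.67, an interaction of -1.16 ± 0.10 (adjusted p = 0.000292). From DM 24h to DM 48h, 5 were called, all towards higher values (Col5a3, Col12a1, Col6a2, Col1a1 and Col5a1), against 12.1% of all genes (7.12% higher and 4.97% lower). The interaction of Col5a3 was then 1.20 ± 0.21 (adjusted p = 0.00301), and that of Col1a1 0.47 ± 0.09 (adjusted p = 0.00476). Both remained called in all 22 alternatives counted. Both had their largest PFI-3 difference at DM 24h. The count from GM to DM 24h was larger without either GM DMSO library. It was smaller without DM 24h DMSO library B or DM 24h PFI-3 library A. The number called over all genes tested moved in the same directions in these fits. The count from DM 24h to DM 48h was larger without GM DMSO library A and smaller without any single DM library, and so was the number over all genes. Without the 4 GM libraries the count was 17, against 33.6% of all genes tested there.

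The chains of one protein did not keep the same proportions. The ratio of Col1a1 to Col1a2 FPKM, which in the usual type I trimer meet as a pair of Col1a1 chains with a single Col1a2 chain, was 0.0742 and 0.0505 in GM with DMSO, 0.188 and 0.189 at DM 24h, then 0.363 and 0.343 by DM 48h. With PFI-3 it was 0.053 and 0.0329, then 0.0546 and 0.0549, then 0.118 and 0.118. The PFI-3 libraries lay below the DMSO libraries at both DM stages and overlapped them in GM. These ratios are given as values and were not tested.

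The ratio of Col4a1 to Col4a2, in contrast, stayed between 1.35 and 1.66 in all 12 libraries. That of Col6a1 to Col6a3 rose from 0.162 and 0.398 in GM with DMSO to 3.08 and 3.12 at DM 24h, then 3.73 and 3.85 by DM 48h. With PFI-3 it was higher at both DM stages, at 4.47 and 4.58 and then at 6.42 and 6.75. The ratio of Col3a1 to Col1a1 also differed: Col3a1 was 8.83 and 8.60 times Col1a1 at DM 24h with DMSO, and 55.5 and 56.8 times with PFI-3. Relative to Col1a2, the other type I chain, the shift was smaller. At DM 24h the PFI-3 mean was 16.3% of the DMSO mean for Col1a1 and 56.1% for Col1a2.

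**Figure D4:**
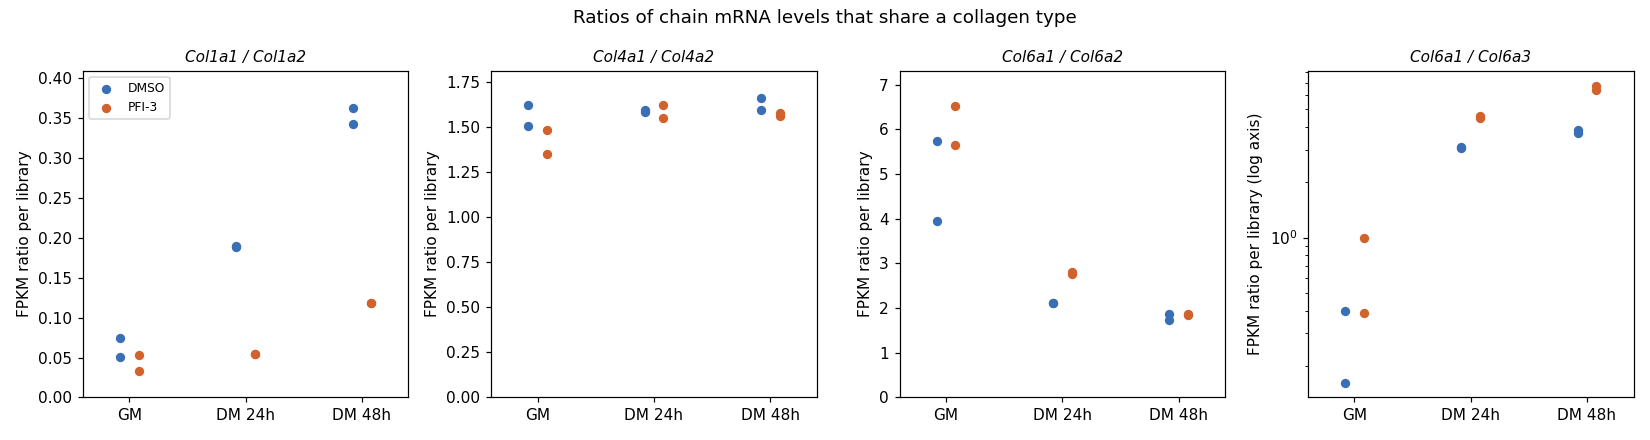
Ratio of FPKM between chains of the same collagen type (vertical axes; the rightmost is a log axis) at the 3 stages, a point per library, DMSO in blue and PFI-3 in orange. Col1a1 relative to Col1a2 is 0.363 and 0.343 in DMSO libraries but 0.118 in PFI-3 libraries at DM 48h, while Col4a1 relative to Col4a2 stays between 1.35 and 1.66.

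Enzymes and chaperones that make collagen were examined as a list of 36 genes, of which 33 were tested. In GM 12 were called, all lower with PFI-3, against 11.6% of all genes tested (6.15% lower). At DM 24h 12 were called, 7 higher and 5 lower, against 23.6%. At DM 48h it was 19, of which 12 were higher and 7 lower, against 27.4%. The median log2 fold changes were -0.21, -0.04 and 0.14. A fit of only the 4 GM libraries called 1. The DM 24h count was smaller without any single library of that stage, and it was 19 without the 4 GM libraries (against 44.7% of all genes). The DM 48h count was smaller without DMSO library A or PFI-3 library A of that stage. The share of all genes in these fits with a library left out is not given here. Creb3l1, a transcription factor of the endoplasmic reticulum known to activate type I collagen genes, was lower at all stages. It was at 122.99 and 119.31 FPKM with DMSO and at 58.25 and 67.96 FPKM with PFI-3 in GM (-1.04 ± 0.09, adjusted p = 3.27e-05), and at 164.8 and 168.18 against 96.82 and 101.52 FPKM at DM 24h (-0.80 ± 0.09, adjusted p = 6.14e-05). At DM 48h the difference was smaller, with 103.29 and 90.03 against 83.7 and 85.08 FPKM (-0.28 ± 0.09, adjusted p = 0.031). The treatments did not overlap.

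Serpinh1, the collagen chaperone Hsp47, was at 410.88 and 422.82 against 313.01 and 327.67 FPKM in GM (-0.48 ± 0.06, adjusted p = 0.000491) and at 599.97 and 637.42 against 421.16 and 416.13 FPKM at DM 24h (-0.61 ± 0.06, adjusted p = 2.19e-05). By DM 48h the level was 415.82 and 416.16 against 403.51 and 400.27 FPKM and was not called (adjusted p = 0.108). The cross-linking enzyme Loxl4 was lower at all stages, by -0.84 ± 0.12 in GM, -0.45 ± 0.13 at DM 24h and then -1.04 ± 0.15 by DM 48h.

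Prolyl hydroxylases, which stabilise the helix, split. P4ha3 was at 8.03 and 7.42 FPKM with DMSO and at 15.83 and 16.38 FPKM with PFI-3 at DM 24h (1.01 ± 0.22, adjusted p = 0.00558) and was also higher at DM 48h (1.23 ± 0.23, adjusted p = 0.00195). P4ha2 was higher at DM 24h, at 16.5 and 16.41 against 25.08 and 22.59 FPKM (0.49 ± 0.10, adjusted p = 0.00554), and lower at DM 48h, at 37.57 and 41.15 against 25.53 and 25.85 FPKM (-0.70 ± 0.10, adjusted p = 0.000234). Neither gene overlapped between treatments at these stages.

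Of 8 collagen receptor genes, 7 were tested. The model of all 12 libraries called 2 of them in GM, against 11.6% of all genes tested. At each DM stage it called 1 (14.3%), below the 23.6% of all genes at DM 24h and the 27.4% at DM 48h. Ddr1, a receptor tyrosine kinase that binds triple-helical collagen, was lower with PFI-3 at all stages. It was at 31.45 and 33.44 against 27.01 and 30.31 FPKM in GM (-0.27 ± 0.07, adjusted p = 0.033), at 59.68 and 60.77 against 51.74 and 49.28 FPKM at DM 24h (-0.30 ± 0.07, adjusted p = 0.0114), and at 73.5 and 68.58 against 60.72 and 59.75 FPKM at DM 48h (-0.33 ± 0.07, adjusted p = 0.00489). Its relative Ddr2, a receptor for fibrillar collagen, was higher in GM (0.33 ± 0.09, adjusted p = 0.0319). The model of all 12 libraries called no other receptor, the integrin subunits Itga1, Itga10, Itga11 and Itgb1 included, while the fit without the 4 GM libraries called 5 of the 7 at DM 24h, against 44.7% of all genes, and then 4 by DM 48h, against 47.2%.

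**Figure D5:**
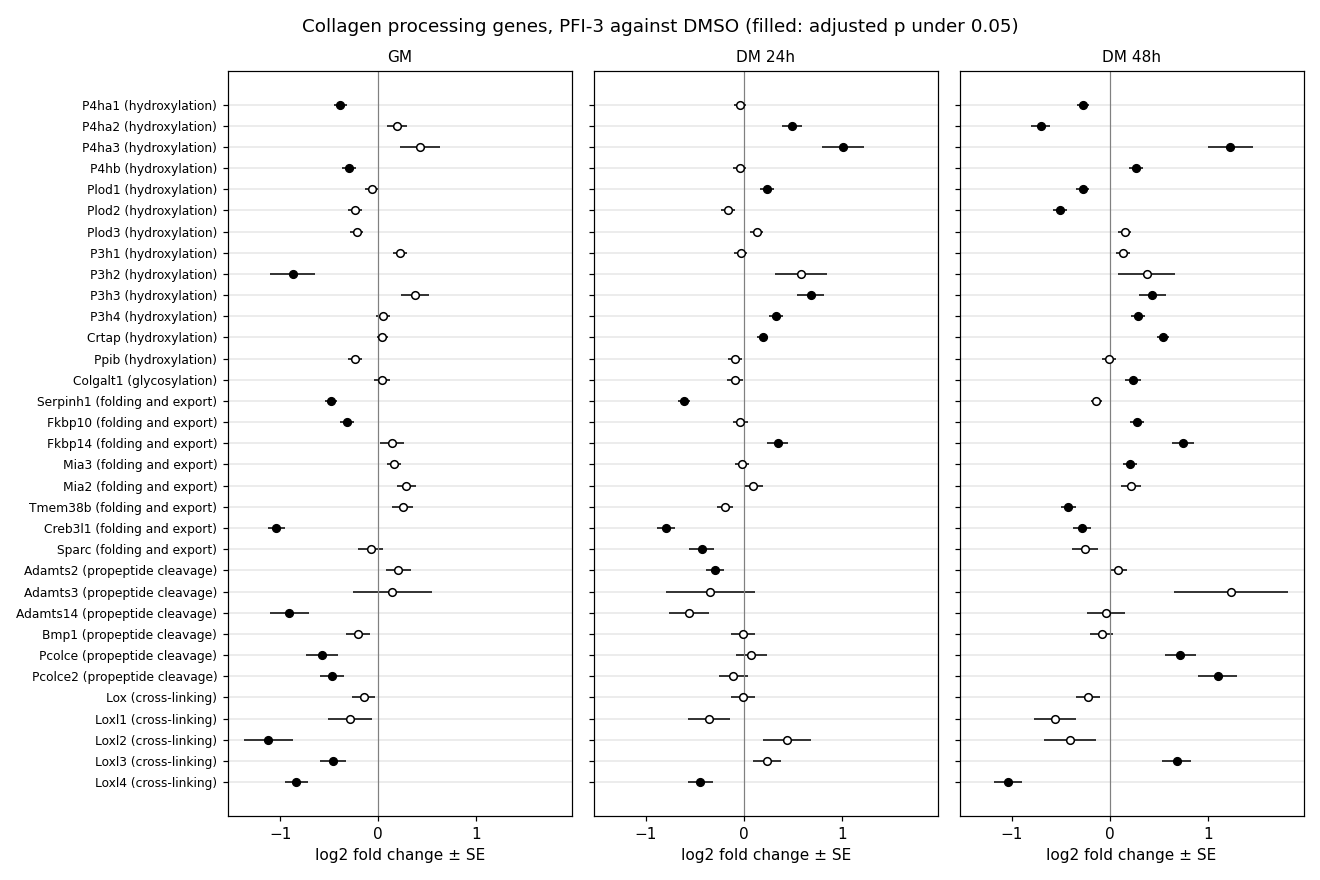
Log2 fold change with PFI-3 against DMSO (horizontal axes, shared scale, points with standard errors as bars) of the 33 tested genes of collagen hydroxylation, glycosylation, folding and export, propeptide cleavage and cross-linking at the 3 stages; filled points passed an adjusted p under 0.05 in edgeR. All 12 filled points in GM lie to the left of zero, while DM 24h has 7 to the right and 5 to the left, and DM 48h 12 to the right and 7 to the left.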

How the data were processed

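The authors deposited one table per library with an expected count and an FPKM value for each gene, per the file headers. The submitters' processing notes name HISAT, StringTie, Cufflinks, Bowtie, RSEM and DESeq2 and the mm10 genome, without giving each a role. A gene missing from a table was taken as 0: where the tables of a group disagreed on whether a gene is listed (6963 cases), the listed count was 5 or less in 97%. Of the deposited expected counts, 93.3% to 93.7% per library were whole (within 0.005), and all counts of the described collagens were.

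Expected counts were rounded and tested with edgeR 4.0.16 (R 4.3.3): TMM scaling, the quasi-likelihood test, and one 6-group model of all 12 libraries. Low counts were filtered with filterByExpr, which left 12545 of 16288 genes, and p-values were adjusted over these by the Benjamini-Hochberg method and called under 0.05. Errors beside log2 fold changes are standard errors. Levels are the deposited FPKM. Alternatives were other size factors, DESeq2 1.42.0, limma 3.58.1 on log2(FPKM + 1) and log2(FPKM + 0.1), other filters (none, or 10 counts on average), a 2-fold cutoff, the replicate letter as a block, only the libraries compared, and leaving out each library. On simulated counts for PFI-3 against DMSO at DM 24h (12545 genes, 200 changed 2-fold), edgeR recovered 87.0% with 5.4% false calls, DESeq2 86.5% with 4.4% and limma 90.5% with 5.2%. In the simulation all groups shared the same spread for a gene and, apart from the changes put in, the same mean. The changed genes were drawn from those with higher counts. These rates therefore do not cover the larger spread in GM, genes with few counts, or changes in many genes at once.

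For PFI-3 against DMSO every called described collagen is named with statistics. For the steps between stages only some of the called collagens are named. From the processing and receptor lists selected genes are described, not always those with the largest changes. The members and lists were chosen with earlier results of these data known. Intervals are exact binomial ones at 95% and, like the depth, cover counting error only. Promoter bases and gene positions are from RefSeq (GRCm38.p6). Python 3.11.15 with matplotlib 3.10.9, pandas 2.3.3 and scipy 1.17.1 served for tables and figures.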

Additional observations from a re-analysis of the deposited data

Results flagged for a closer look

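For 9 gene and stage-step combinations the PFI-3 difference itself differed between stages by an interaction contrast in edgeR. From GM to DM 24h the PFI-3 log2 difference moved by -1.86 for Col5a3, -1.16 for Col1a1 and -0.76 for Col8a1. The Col8a1 change lost its call in 4 of 21 alternatives (highest adjusted p = 0.0977). For Col25a1 the change was -4.99, resting on 0 and 1 count in the GM DMSO libraries. It lost its call in 7 of 21 alternatives (adjusted p from 0.0131 to 0.342), so its size cannot be read as a fold.

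From DM 24h to DM 48h the PFI-3 difference moved by 1.20 for Col5a3 and 0.47 for Col1a1, both called in all 22 alternatives, a count that leaves out the 2-fold cutoff. It moved by 0.81 for Col12a1, 0.81 for Col6a2 and 0.36 for Col5a1, and these lost their call in 11, 11 and 8 of 22 alternatives (highest adjusted p = 0.142, 0.234 and 0.109), among them each fit that left out one DM library.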

How the results depend on the processing

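No call that the 12-library model made for a described collagen changed direction under the alternatives run. Of the differences it did not call, that of Col4a2 with PFI-3 in GM was called higher without GM DMSO library A and lower without library B, and those of Col4a1 and Col4a2 from GM to DM 24h with DMSO did so too. With a 2-fold cutoff the counts of called collagens were 3, 3 and 7 for PFI-3 in the order of the stages, 8 from DM 24h to DM 48h with DMSO and 6 with PFI-3. The share of all genes at this cutoff was not counted. Fits of only the libraries compared gave 1 in GM, 20 at DM 48h, 17 from DM 24h to DM 48h with PFI-3, and 2 and 17 for the interactions. With a replicate block added these were 5, 21, 17, 8 and 17. The number called over all genes moved as well. For the interactions it was 79 of 12260 and 4154 of 12371 without the block, and 763 and 4336 with it. For GM with the block, for DM 48h and for the step with PFI-3 it is not given here. The collagen counts of those fits therefore have no reference. Limma on log2(FPKM + 1) gave 5 in GM. The fit without the 4 GM libraries, chosen after seeing the data, gave 21 at DM 48h, 18 from DM 24h to DM 48h with PFI-3 and 17 for the later interaction. Over all genes it called 47.2%, 47.5% and 33.6% in these comparisons.

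Leaving out each library gave 8 to 11 for PFI-3 in GM, 9 to 13 at DM 24h and 10 to 16 at DM 48h. From GM to DM 24h it gave 20 to 23 with DMSO and 19 to 22 with PFI-3, from DM 24h to DM 48h 8 to 17 and 7 to 14, and from GM to DM 48h 18 to 22. The interaction counts also varied with the library left out. For the steps with DMSO and the interactions, so did the number called over all genes. These ranges therefore do not set the collagens apart from other genes.

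In the 12-library model, the replicate letter as a replicate block gave 8, 13 and 14 called collagens for PFI-3 at the 3 stages. The share of all genes with this block is not given here. Libraries with the same letter deviated together in GM (correlation 0.509) and not at DM 24h (0.036) or DM 48h (0.051), and its meaning is not given in the labels, so it was not used to pair them. With 2 libraries per group, collagens with few counts (Col23a1, Col24a1, Col14a1 in GM and Col25a1 in GM) had standard errors too large for moderate changes to be detectable at this depth.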
